A study of Mus musculus with 6 samples.

Results

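The genes described here encode the NF-kappa B transcription factors and proteins that act on them or with them. The 10 genes were picked by name: the 5 subunit genes Nfkb1, Nfkb2, Rela, Relb and Rel, and the 5 genes Nfkbia, Nfkbie, Nfkbiz, Tnfaip3 and Ikbke, which act on the pathway and are themselves induced by it. All 10 were found in the count table of 56884 genes, and all 10 were among the 18177 genes that passed the filter on low counts. They were compared between ectopic endometrial lesions grown from uterine tissue of Dnmt3a KO donors and lesions grown from WT donors.

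NF-kappa B subunits work as dimers. In a resting cell the dimers are kept in the cytoplasm by I kappa B proteins, and signals such as bacterial products, TNF or IL-1 activate the IKK kinase complex, which marks I kappa B for destruction and frees the dimers to enter the nucleus. There they switch on cytokines, chemokines and adhesion molecules, together with the genes for their own inhibitors, so the transcripts of these inhibitors are widely read as targets of the pathway. A slower, non-canonical branch runs through the Nfkb2 and Relb products. In endometriosis, a disease in which endometrium-like tissue grows outside the uterus, NF-kappa B is known as a link between infiltrating macrophages, cytokines and lesion growth.

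Whole lesions were measured by RNA sequencing, with 1 library from each of 3 WT and 3 KO lesions. The WT donors carried the floxed Dnmt3a allele without Cre (Dnmt3a f/f). The KO donors carried the same allele with Cre driven from the progesterone receptor locus (Dnmt3a f/f:PR-Cre/+). Both groups thus shared the floxed alleles, only KO donors carried Cre, and Cre was active only in donor cells with progesterone receptor. By the methods, donors of both groups were injected with estradiol on 3 days before their tissue was taken. Donor tissue was placed into wild-type recipients that carried estrogen pellets, so leukocytes and vessels that came from the recipient kept Dnmt3a in both groups, and donors were of the same age in both. The labels give collection at 4 weeks and intraperitoneal injection of tissue fragments, whereas the methods give an earlier day and a fragment sutured to the mesentery. The labels do not tie the replicates to animals, and the methods give 3 donors per group, so p-values measure the spread between these lesions.

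The libraries held 45370342 to 57239184 counts. Dnmt3a itself was measured at 43.9 to 52.7 CPM (a count divided by the scaled total of its library, times 1e6) in WT and 30.3 to 36.2 CPM in KO lesions, with no overlap. WT replicate 2 stood apart from the other libraries in leukocyte genes: the summed level of 10 neutrophil markers was 9985 CPM there, against 221 and 487 CPM in the other WT lesions and 38.4 to 191 CPM in the KO lesions. WT replicates 1 and 3 stood apart in skeletal muscle genes, with 8 markers summing to 27744 and 28983 CPM against 4.73 to 14.7 CPM in the other 4 libraries. Markers of endometrial epithelium summed to 1527 to 2891 CPM and those of endometrial stroma to 1721 to 2302 CPM over all 6 libraries, but Foxa2, a marker of uterine glands, reached at most 2.62 CPM and was at 0 in KO replicate 3. Fitted values of the 10 genes and medians of the lists are given with and without WT replicate 2. Without it the WT group holds only the lesions high in skeletal muscle genes, so genotype and muscle content cannot be told apart there.

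The promoters are shown because these genes are known for kappa B sites close to their start, through which the factor feeds back on its own inhibitors. RefSeq windows on GRCm38.p6 were held for 7 of the 10 genes, some with several start sites. The 250 bases before the start site are given 5′ to 3′ for Nfkbia, Tnfaip3, Nfkb2 and Nfkbie, which hold a match to the kappa B consensus, and for Rela, which does not. Capitals mark the consensus matches on either strand, and overlapping matches run together.
Nfkbia, chr12:55492648-55492897, minus strand: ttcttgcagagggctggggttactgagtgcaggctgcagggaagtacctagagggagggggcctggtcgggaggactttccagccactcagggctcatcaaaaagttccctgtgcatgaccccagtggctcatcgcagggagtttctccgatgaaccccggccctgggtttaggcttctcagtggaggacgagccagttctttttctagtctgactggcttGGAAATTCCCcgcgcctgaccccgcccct
Tnfaip3, chr10:19015411-19015660, minus strand: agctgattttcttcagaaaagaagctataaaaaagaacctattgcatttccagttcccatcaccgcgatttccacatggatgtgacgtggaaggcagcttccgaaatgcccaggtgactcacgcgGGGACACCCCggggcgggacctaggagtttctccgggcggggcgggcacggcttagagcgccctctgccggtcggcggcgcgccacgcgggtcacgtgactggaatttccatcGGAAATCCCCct
Nfkb2, chr19:46304487-46304736, plus strand: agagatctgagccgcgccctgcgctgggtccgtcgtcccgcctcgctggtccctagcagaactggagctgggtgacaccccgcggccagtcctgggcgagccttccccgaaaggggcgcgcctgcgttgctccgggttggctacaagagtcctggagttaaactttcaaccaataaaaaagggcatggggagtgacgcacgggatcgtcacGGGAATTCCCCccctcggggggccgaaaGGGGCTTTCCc
Nfkbie, chr17:45555450-45555699, plus strand: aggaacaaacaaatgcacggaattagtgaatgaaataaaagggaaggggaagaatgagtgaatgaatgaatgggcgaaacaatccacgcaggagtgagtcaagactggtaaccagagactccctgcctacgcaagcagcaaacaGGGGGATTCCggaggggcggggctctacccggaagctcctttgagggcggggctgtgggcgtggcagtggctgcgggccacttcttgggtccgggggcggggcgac
Rela, chr19:5637291-5637540, plus strand: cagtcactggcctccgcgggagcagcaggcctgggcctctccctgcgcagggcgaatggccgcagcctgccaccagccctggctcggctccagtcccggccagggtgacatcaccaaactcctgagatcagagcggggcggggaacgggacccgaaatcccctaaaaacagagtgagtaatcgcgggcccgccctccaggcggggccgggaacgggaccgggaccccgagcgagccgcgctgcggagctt

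The Nfkbia window holds a match from -29 to -20, counted back from the start site, with the letters GGAAATTCCC. In Tnfaip3 the letters GGGACACCCC lie from -125 to -116 and GGAAATCCCC from -12 to -3. The Nfkb2 window holds a pair of overlapping matches from -39 to -29 and GGGGCTTTCC from -11 to -2, and Nfkbie holds GGGGGATTCC from -106 to -97. Rel also holds overlapping matches, from -92 to -82, whereas Rela and Ikbke hold none. In all, 7 of the 10 windows of these genes, from 5 of the 7 genes, held a match to the consensus, compared with 7.25% of the 32851 mouse promoter windows of the same length. A looser form, GGGNNNNNCC, which takes in many of the same letters, was found in 9 of the 10 windows and in 45.8% of all windows. The matches describe the letters in these windows and are not binding sites measured here. No RefSeq window was held for Nfkb1, Relb and Nfkbiz.

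In KO lesions all 10 genes had a lower estimated level than in WT lesions, from a log2 fold change of -0.34 for Rela to -3.40 for Tnfaip3, with a median of -1.34. Over all 18177 genes the estimate was lower in KO for 48.6% and the median was 0.01. With edgeR's quasi-likelihood test and Benjamini-Hochberg adjustment over all genes, 0 of the 10 passed an adjusted p of 0.05, with adjusted p between 0.323 and 0.419, and 0.0055% of all genes passed it. Without WT replicate 2 again 0 of the 10 passed it, whereas 398 of 18923 genes did (2.1%). Before adjustment 7 of the 10 had p under 0.05 with a lower level in KO, the share over all genes being 8.16%, and these were the 5 feedback genes together with Nfkb2 and Relb. The same 7 also had log2 fold changes below -1, as did 5.85% of all genes. The WT and KO values did not overlap for 8 of the 10, with WT higher, against 8.74% of all genes. The 10 genes were chosen with earlier results of these data known, so the shares over all genes describe and are not a blind test. Fewer cells of a type in the lesion and less RNA per cell cannot be told apart in these libraries.

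All 10 genes were highest in WT replicate 2, as were 24.2% of all genes, and the estimates were smaller without that lesion. With it left out the estimates of all 10 were lower in KO (45.7% of all genes), the median went from -1.34 to -0.65, and the median of all genes was 0.04. The WT lesions in that fit, replicates 1 and 3, had skeletal muscle marker sums of 27744 and 28983 CPM, against 7.43 to 14.7 CPM in KO. With WT replicate 2 left out 7 of the 10 had p under 0.05 with a lower level in KO, the share over all genes being 9.64%, and the 8 genes without overlap were read against 17.9% of all genes. With KO replicate 1 left out, 0 of the 10 had p under 0.05 (3.7% of all genes), and with KO replicate 2 left out again 0 (4.22% of all genes). DESeq2's Wald test called 4 of the 10 at an adjusted p under 0.05, Nfkbie, Nfkbiz, Tnfaip3 and Ikbke, when 3.9% of all genes were called lower. Without WT replicate 2 DESeq2 also called 4, with Nfkbia in place of Nfkbie, when 5.4% were called lower. The share of genes with a lower level in KO also moves with the scaling: the main scaling gave 1484 lower and 1190 higher genes with p under 0.05, and upper quartile scaling 1179 lower and 1945 higher, with 7 of the 10 lower in both.

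**Figure D1:**
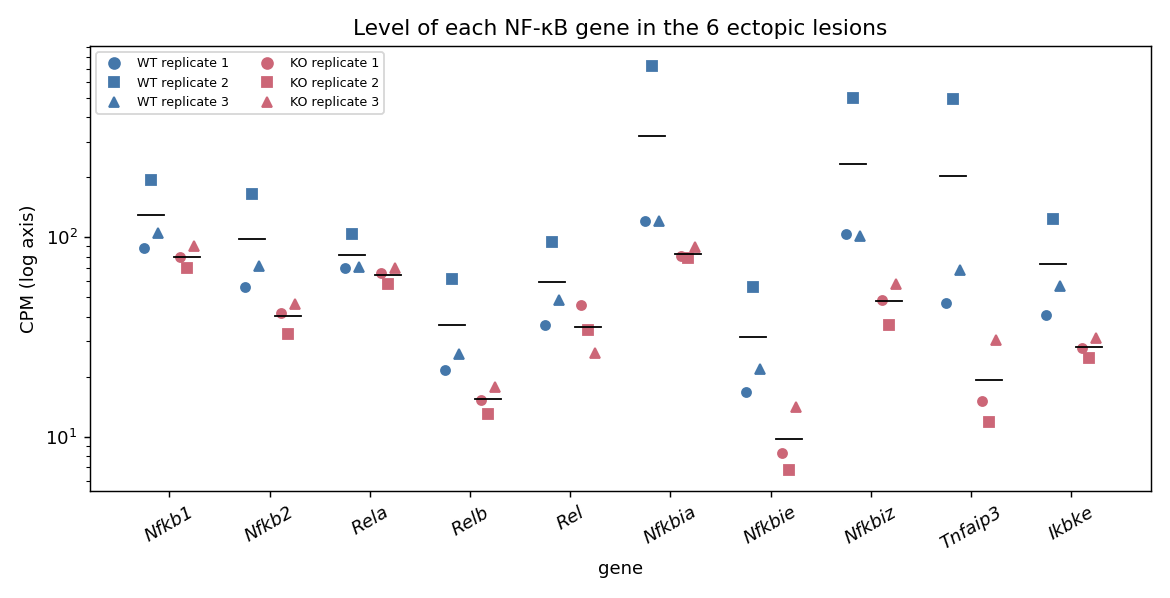
Level of each of the 10 genes in every lesion, in CPM on a log axis, for 3 WT and 3 KO lesions. Colours give the group, symbols the replicate number and black lines the group mean. WT replicate 2 is the highest lesion for every gene, and KO replicate 3 is the highest KO lesion for 9 of the 10.

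Rela (ENSMUSG00000024927.9, chromosome 19) encodes p65, the subunit with the main transactivating role in the canonical dimer. It read 70.5, 104 and 71.3 CPM in WT replicates 1 to 3 and 66.2, 58.1 and 69.9 CPM in KO replicates 1 to 3. The groups did not overlap, but KO replicate 3 and WT replicate 1 were 69.9 and 70.5 CPM. The log2 fold change was -0.34 (SE 0.19, adjusted p = 0.419 by edgeR), and without WT replicate 2 it was -0.13 (SE 0.13). Its transcript differed least between the groups among the 10.

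Nfkb1 (ENSMUSG00000028163.18, chromosome 3) encodes p105, the precursor of the p50 partner subunit. It was measured at 88.4, 193 and 105 CPM in WT, against at 79.6, 70.1 and 90.5 CPM in KO lesions, so KO replicate 3 lay above WT replicate 1 and the groups overlapped. The WT mean was 129 ± 56.4 CPM and the KO mean 80.1 ± 10.2 CPM (each ± SD, n = 3), and the fitted log2 fold change was -0.69 (SE 0.32, adjusted p = 0.362 by edgeR), or -0.27 (SE 0.16) without WT replicate 2. Rel (ENSMUSG00000020275.10, chromosome 11), which encodes c-Rel, a subunit used mainly in lymphoid and myeloid cells, also overlapped, with 36.3, 94.4 and 48.6 CPM in WT against 45.7, 34.2 and 26.2 CPM in KO. It is the only one of the 10 for which KO replicate 3 was not the highest KO lesion. Its log2 fold change was -0.76 (SE 0.40, adjusted p = 0.398 by edgeR) and -0.26 (SE 0.28) without WT replicate 2.

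Nfkb2 (ENSMUSG00000025225.16, chromosome 19) and Relb (ENSMUSG00000002983.18, chromosome 7) encode p100 and RelB, the partners of the non-canonical dimer, and both are also known targets of the canonical one. Nfkb2 measured 56.4, 165 and 71.6 CPM in WT, against 41.6, 32.8 and 46.3 CPM in KO, with no overlap. Its fitted log2 fold change was -1.28 (SE 0.43, adjusted p = 0.328 by edgeR), and -0.67 (SE 0.20) without WT replicate 2. Relb followed the same order at a lower level, with 21.6, 61.8 and 26.0 CPM in WT against 15.3, 13.0 and 17.7 CPM in KO. The log2 fold change of Relb was -1.25 (SE 0.43, adjusted p = 0.328 by edgeR), and -0.63 (SE 0.19) without that lesion.

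**Figure D2:**
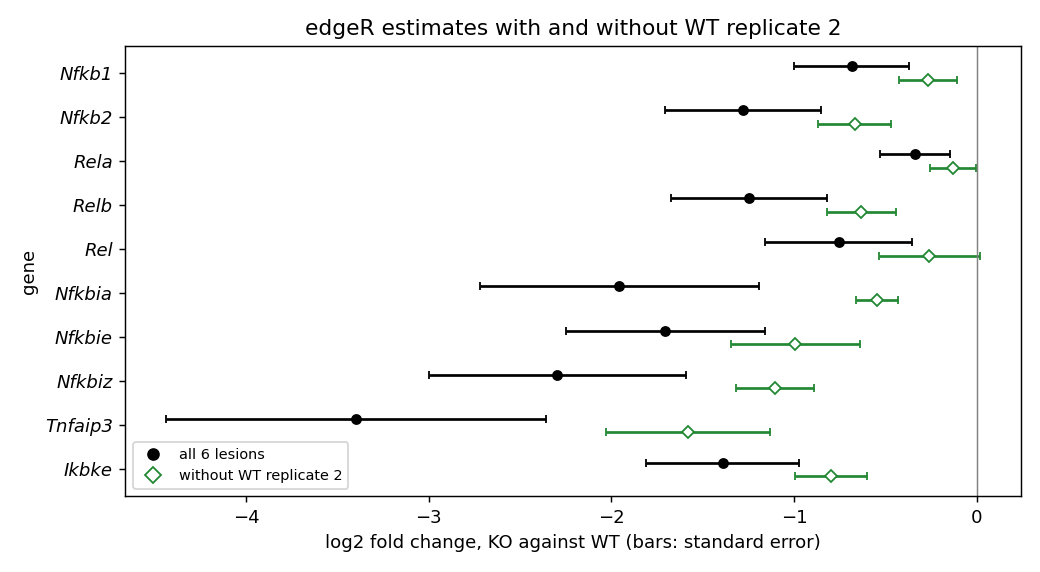
Log2 fold change of KO against WT for the 10 genes from edgeR with all 6 libraries and with WT replicate 2 left out. Bars give 1 standard error. All estimates lie below 0 in both fits, and those of Tnfaip3, Nfkbiz and Nfkbia move most between the fits.

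Nfkbia (ENSMUSG00000021025.9, chromosome 12) encodes I kappa B alpha, the inhibitor that is destroyed on activation and resynthesised as the first loop of feedback. It reached 723 CPM in WT replicate 2, but 121 CPM in each of WT replicates 1 and 3, and the KO lesions lay at 80.3, 78.6 and 89.6 CPM. With WT replicate 2 the log2 fold change was -1.96 (SE 0.76, adjusted p = 0.332 by edgeR), with SDs of 347 CPM in WT, against 5.93 CPM in KO. Without it the estimate was -0.55 with a smaller error (SE 0.12, adjusted p = 0.120 by edgeR). DESeq2 gave an adjusted p of 0.0844 with all libraries and 0.0108 without WT replicate 2.

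Nfkbie (ENSMUSG00000023947.9, chromosome 17) encodes I kappa B epsilon, a later feedback inhibitor. It measured 16.7, 56.1 and 21.9 CPM in WT, against 8.24, 6.75 and 14.0 CPM in KO, where the highest KO lesion, replicate 3, lay below the lowest WT lesion. The log2 fold change was -1.70 (SE 0.54, adjusted p = 0.328 by edgeR), and -0.99 (SE 0.36) without WT replicate 2. By DESeq2 its adjusted p was 0.0463, and 0.173 without that lesion. Nfkbiz (ENSMUSG00000035356.18, chromosome 16) encodes I kappa B zeta, a nuclear member that works with the factor on secondary targets. Its levels were 104, 497 and 101 CPM in WT, against 48.5, 36.3 and 58.1 CPM in KO, so the KO lesions lay at or below 58.1 CPM and no WT lesion below 101 CPM. The log2 fold change of Nfkbiz was -2.30 (SE 0.70, adjusted p = 0.325 by edgeR) and -1.11 (SE 0.21, adjusted p = 0.0987 by edgeR) without WT replicate 2, and DESeq2 gave 0.0183 and 0.00313.

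Tnfaip3 (ENSMUSG00000019850.12, chromosome 10) encodes A20, a ubiquitin-editing enzyme that shuts off signalling to IKK. Its WT lesions measured 47.0, 492 and 68.1 CPM and its KO lesions 15.1, 11.8 and 30.7 CPM. WT replicate 2 was 8.55 times the mean of the other WT lesions, the highest such ratio of the 10, while KO replicate 3 was below the lowest WT lesion. The log2 fold change was -3.40 (SE 1.04, adjusted p = 0.325 by edgeR) and -1.58 (SE 0.45) without WT replicate 2, and DESeq2 gave an adjusted p of 0.00507 and 0.0324 for those fits. Ikbke (ENSMUSG00000042349.14, chromosome 1) encodes IKK epsilon, a kinase related to the IKK complex that acts in the interferon and NF-kappa B responses. It was 40.7, 123 and 56.9 CPM in WT, against 27.8, 24.9 and 31.3 CPM in KO, and its log2 fold change was -1.39 (SE 0.42, adjusted p = 0.323 by edgeR), -0.80 (SE 0.20) without WT replicate 2, with adjusted p of 0.0478 and 0.0358 by DESeq2.

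The level in WT replicate 2 was also divided by the mean of the other WT lesions. That ratio ran from 1.47 to 2.59 for the 5 subunit genes and from 2.52 to 8.55 for the 5 feedback genes. In 9 of the 10 genes the lowest KO lesion was replicate 2, and in 9 of the 10 the highest was replicate 3.

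Levels were then set per kilobase of exon, so that genes can be compared. In KO lesions Nfkbia led with a mean of 51.5 CPM per kilobase, then Rela at 21.1, Nfkbiz at 9.49, Nfkb2 at 8.77, Nfkb1 at 6.64, Rel at 4.74, Relb at 3.95, Nfkbie at 3.18, Ikbke at 3.11 and Tnfaip3 at 2.66. Nfkbia and Rela, and Rela and Nfkbiz, had ranges that did not overlap, whereas each later gene overlapped its neighbour in that order. In WT lesions the order was Nfkbia, Nfkbiz, Tnfaip3, Rela, Nfkb2, Nfkb1, Nfkbie, Relb, Ikbke and Rel, with overlap between all neighbours, and this order changed with WT replicate 2 left out. The means of the other WT lesions then ran Nfkbia at 75.3 CPM per kilobase, Rela, Nfkbiz at 20.5, Nfkb2 at 14.0, Nfkb1, Tnfaip3 at 7.97, Nfkbie at 6.33, Relb at 6.13, Rel at 5.68 and Ikbke at 5.41, so the leading 5 genes stood in the same order as in KO. Tnfaip3 had a mean of 28.0 CPM per kilobase with all 3 WT lesions and 7.97 without WT replicate 2, and 2.66 in KO.

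The make-up of the subunit pool was calculated as each subunit gene's share of the 5 per-kilobase levels in a lesion. Rela took 43.3%, 29.6% and 38.2% of the pool in WT and 45.6%, 47.5% and 47.0% in KO replicates 1 to 3. Nfkb2 took 23.2%, 31.5% and 25.7% in WT and 19.2%, 18.0% and 20.8% in KO, and Relb 10.5%, 13.9% and 11.0% in WT and 8.34%, 8.43% and 9.41% in KO. These shares of Rela, Nfkb2 and Relb did not overlap between the groups (p = 0.1 for each in an exact two-sided permutation test, which can go no lower with 3 against 3), while the shares of Nfkb1 and Rel did. Shares of a pool are bound to each other, so a higher share of Rela goes with lower shares elsewhere. Nfkb2 and Relb were also lower in CPM in every KO lesion than in any WT lesion, and Rela differed least. The shares thus largely repeat the CPM result, and no comparison with other genes was made for them.

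**Figure D3:**
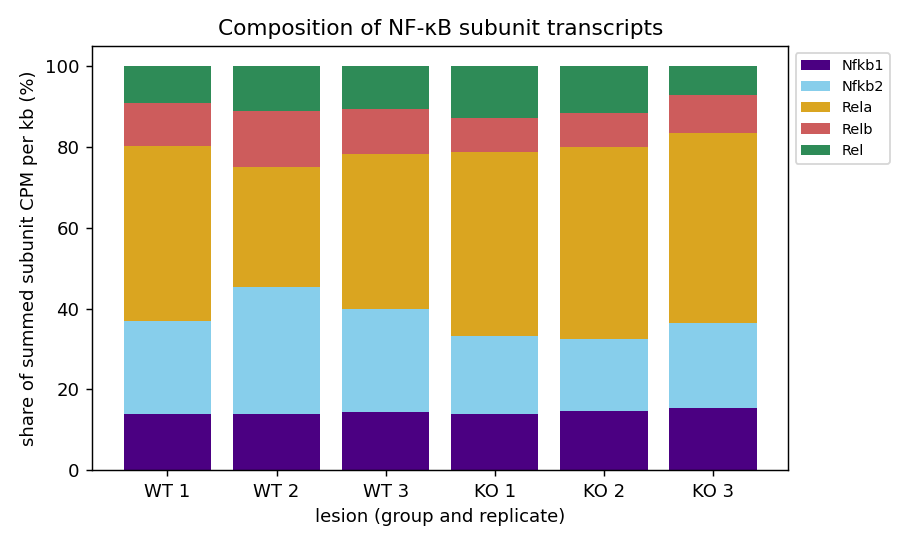
Share of each of the 5 subunit genes in the summed CPM per kilobase of the subunits, in percent, in the 3 WT and 3 KO lesions. Rela holds a larger share and Nfkb2 and Relb a smaller one in every KO lesion than in any WT lesion.

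The feedback genes were also read per unit of Rela within each lesion, as ratios of CPM per kilobase. The ratio of Nfkbia to Rela was 3.28, 13.2 and 3.25 in WT and 2.31, 2.58 and 2.45 in KO. For Tnfaip3 it was 0.284, 2.01 and 0.406 in WT and 0.0969, 0.0866 and 0.187 in KO, and for Nfkbiz 0.902, 2.93 and 0.871 in WT and 0.449, 0.382 and 0.509 in KO. The ratio of Nfkb2 to Nfkb1 was 1.68, 2.25 and 1.80 in WT and 1.38, 1.23 and 1.35 in KO. Each of these ratios was lower in all KO lesions than in any WT lesion (p = 0.1 in the exact permutation test, the floor for 3 against 3 lesions), and the same held for Nfkbie, Ikbke and Relb per unit of Rela. The ratios of Rel and Nfkb1 to Rela overlapped between the groups (p = 0.5 and 0.2 in the same exact permutation test). In CPM, too, the groups overlapped for Rel and Nfkb1 and not for the feedback genes, Nfkb2 and Relb. Rela differed least, with a log2 fold change of -0.34, so the ratios to Rela largely repeat the CPM result. No share over all genes was calculated for these ratios, so they are not read as a separate shift.

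Other genes of the pathway, from lists chosen by function with earlier results of these data known, were read in the same fit. Over all genes 48.6% were estimated lower, 8.16% were lower at p under 0.05 and 6.55% were higher at p under 0.05 (0 of the 10 members). Of the 17 genes of the IKK complex and upstream kinases and adaptors, 12 were estimated lower and 5 higher in KO, with 1 of the 17 lower and 1 higher at p under 0.05, near the shares over all genes, and a median of -0.21, or -0.08 without WT replicate 2. Tab2, an adaptor of the TAK1 kinase, had a log2 fold change of -0.43 (SE 0.11) with 133, 148 and 148 CPM in WT, against 107, 106 and 105 CPM in KO, and edgeR's adjusted p was 0.321. Ikbkg, which encodes NEMO, the regulatory subunit of IKK, was 57.5, 57.2 and 53.9 CPM in WT, against 70.4, 72.6 and 62.8 CPM in KO, with a log2 fold change of 0.29 (adjusted p = 0.332 by edgeR). The groups did not overlap for either, and by DESeq2 the adjusted p of Tab2 was 0.0318. Rnf31, a subunit of the linear ubiquitin ligase, Map3k14, the kinase NIK of the non-canonical branch, and the ubiquitin ligase Traf6 had log2 fold changes of -0.42, -0.46 and -0.25, with unadjusted p of 0.0893, 0.0932 and 0.119 by edgeR.

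All 3 of the other I kappa B genes were estimated lower, with a median of -1.74 and 0 of them at p under 0.05, and their median was -0.51 without WT replicate 2. Nfkbid measured 24.9 CPM in WT replicate 2 and between 0.656 and 2.44 CPM in all other lesions. Bcl3 was 17.2, 88.0 and 17.7 CPM in WT, against 12.4, 9.08 and 15.3 CPM in KO (log2 fold change -1.74, adjusted p = 0.340 by edgeR), and its estimate was -0.51 without WT replicate 2. Nfkbib read 17.0, 34.5 and 16.5 CPM in WT, against 15.3, 11.2 and 12.4 CPM in KO, with a log2 fold change of -0.80, or -0.36 without that lesion.

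Of 9 other feedback inhibitors 8 were estimated lower, 5 at p under 0.05 (8.16% over all genes), with a median of -0.50, or -0.43 without WT replicate 2. The count at p under 0.05 was 3 of 9 without KO replicate 1 (3.7% over all genes) and 2 of 9 without KO replicate 2 (4.22%). Tnip3, an A20-binding inhibitor, measured 42.7, 67.7 and 89.2 CPM in WT, against 7.58, 5.28 and 16.5 CPM in KO, and here WT replicate 3 was highest. Its log2 fold change was -2.77 (SE 0.52, adjusted p = 0.321 by edgeR), and it was -2.75 without WT replicate 2. By DESeq2 its adjusted p was 2.6e-05. Zc3h12a, whose product Regnase-1 degrades cytokine transcripts, was 49.9, 140 and 66.2 CPM in WT against 25.8, 19.2 and 26.1 CPM in KO, with log2 fold changes of -1.85 (SE 0.41) and, without WT replicate 2, -1.29 (adjusted p = 0.0608 by edgeR). Tnip1, another A20-binding inhibitor, N4bp1, a restrainer of cytokine responses, and Traf3, which keeps NIK low, had log2 fold changes of -1.49, -0.97 and -0.50, and -0.73, -0.43 and -0.43 without WT replicate 2.

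Of 28 target genes 26 were estimated lower, 13 at p under 0.05 (8.16% over all genes), with a median of -1.91. Leaving out WT replicate 2 gave a median of -0.84, with 23 of the 28 estimated lower (45.7% over all genes) and 8 at p under 0.05 (9.64% over all genes). Leaving out KO replicate 1 gave 4 of the 28 lower at p under 0.05 (3.7% over all genes), and leaving out KO replicate 2 gave 5 (4.22%). Nos2, the inducible nitric oxide synthase, was 20.1, 507 and 9.72 CPM in WT, against 1.44, 1.79 and 3.54 CPM in KO, so its log2 fold change went from -6.31 to -2.72 without WT replicate 2. Cxcl10, a chemokine, was 11.7, 46.1 and 12.0 CPM in WT, against 2.49, 1.55 and 6.21 CPM in KO (log2 fold change -2.77, adjusted p = 0.321 by edgeR), and its estimate was -1.79 without WT replicate 2. Nod2, a sensor of bacterial cell wall, Cd83, a marker of activated antigen-presenting cells, and the chemokine Ccl5 had log2 fold changes of -2.02, -1.24 and -2.09, and -1.41, -1.10 and -1.75 without WT replicate 2, with no overlap between the groups. None of the 57 genes in the 4 lists passed an adjusted p of 0.05 in edgeR, while 19 were at p under 0.05 in the lower direction (8.16% over all genes) and 1 in the higher (6.55%).

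**Figure D4:**
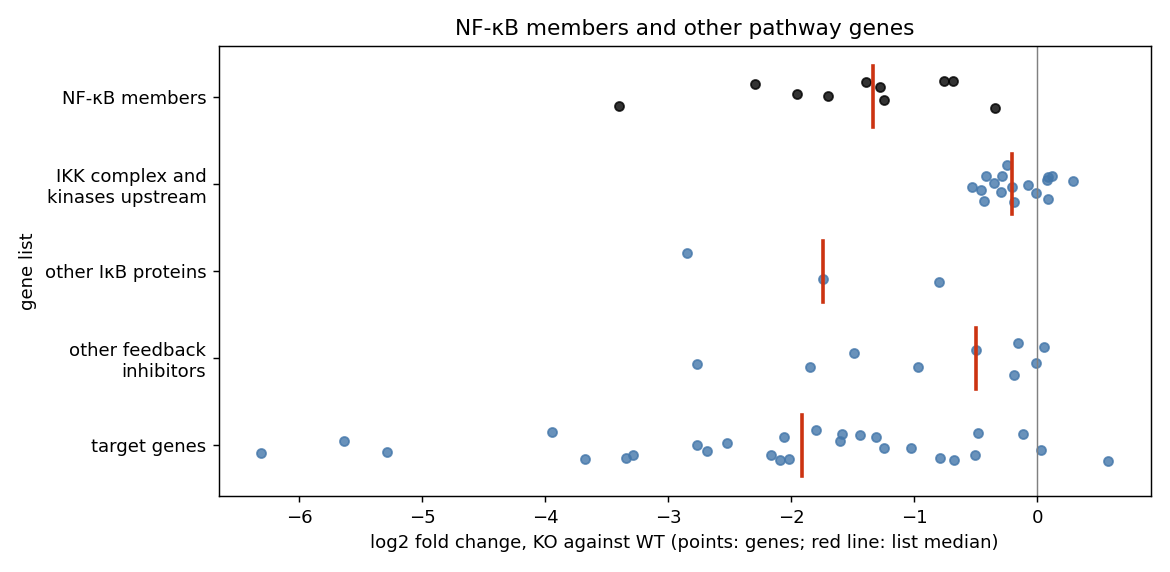
Log2 fold change of KO against WT for the members and for each gene of the 4 pathway lists, with all 6 libraries. Points are genes and red lines list medians. The feedback and target genes lie mostly below 0, with a median of -1.91 for the targets, and the upstream genes lie near 0, with a median of -0.21.

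Leukocyte markers ran alongside these genes. Summed macrophage markers were 1678, 4271 and 2100 CPM in WT, against 965, 694 and 1678 CPM in KO. Of the 10 macrophage markers 1, Cd14, was higher in every WT lesion than in any KO lesion (8.74% over all genes), and the others overlapped. Cd14 measured 419, 1476 and 870 CPM in WT, against 153, 113 and 213 CPM in KO. T cell markers summed to 32.3, 94.2 and 37.2 CPM in WT, against 11.1, 7.55 and 25.5 CPM in KO. B cell markers gave 23.4, 111 and 21.8 CPM in WT, against 17.9, 14.3 and 19.0 CPM in KO. Ptprc, the pan-leukocyte CD45, was 87.4, 652 and 76.2 CPM in WT, against 47.1, 32.3 and 72.1 CPM in KO. Of the 10 neutrophil markers 10 were highest in WT replicate 2, as were 9 of 10 macrophage markers, 8 of 8 T cell markers and 8 of 8 B cell markers, while the 8 dendritic cell markers summed to 54.1 to 58.4 CPM in WT, against 38.5 to 63.8 CPM in KO. That sum is mostly Itgax, which measured 38.6, 15.9 and 35.8 CPM in WT and 25.1 to 36.9 CPM in KO. The other 7 summed to 19.8, 38.2 and 21.0 CPM in WT, and to 15.1, 13.4 and 26.9 CPM in KO, with 4 of the 7 highest in WT replicate 2. Camp and Ngp, granule genes of immature neutrophils, were at 0 in some libraries. Of the 8 stromal markers 3 were higher in KO at p under 0.05 and 0 lower (6.55% and 8.16% over all genes), with a median log2 fold change of 0.72. Of the 8 epithelial markers 0 were higher and 1 lower at that threshold, with a median of 0.46. The part of any cell type in the differences between groups was not tested.

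**Figure D5:**
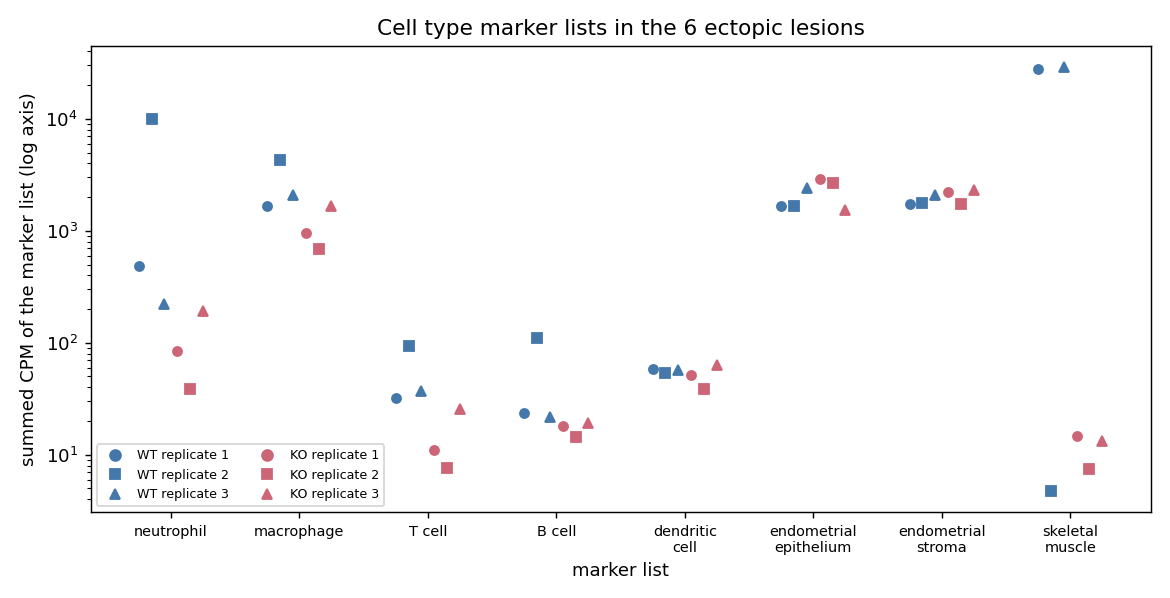
Summed CPM of each cell type marker list in every lesion, on a log axis, with colours for the group and symbols for the replicate number. Neutrophil markers peak in WT replicate 2, skeletal muscle markers in WT replicates 1 and 3, and the epithelial and stromal sums differ less between the groups.

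The genes outside the lists whose pattern over the 6 lesions lay nearest to the mean pattern of the 10 were Il1a, Oasl1, H2-T24, Gmfg and Ms4a4c, with root mean square differences of 0.0342, 0.0550, 0.0602, 0.0632 and 0.0718 in standardized log2 CPM, over 11940 genes searched. Il1a, which encodes the cytokine interleukin-1 alpha, read 45.1, 328 and 58.5 CPM in WT, against 24.8, 17.2 and 28.0 CPM in KO. Among the 10 themselves Relb lay closest to the mean pattern (0.0474) and Rel farthest (0.505). The likeness is over 6 lesions only, and in all 5 of these genes, as in the 10, WT replicate 2 was the highest.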

How the data were processed

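Messenger RNA of 6 whole lesions, 3 WT and 3 KO by the labels' genotype, was measured. The authors deposited whole-number read counts, not normalized, for 56884 genes in each library, and the sample files hold the same values as the series table. The submitters' processing notes name GRCm39, Trimmomatic, featureCounts and DESeq2, whereas the methods name GRCm38. The aligner, the annotation release and the use of strand in counting are not given in the sources used here. Symbols, chromosomes and exon lengths came from GENCODE M21 on GRCm38, in which 51948 identifiers matched without their version. Unmatched identifiers held 3.04% to 3.56% of counts. The counted gene models may differ from it and from the RefSeq promoter windows.

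Counts were fitted with edgeR 4.0.16 in R 4.3.3: filterByExpr (18177 genes kept), TMM factors from 0.962 to 1.05, genotype as the only term, Benjamini-Hochberg over all genes tested. The standard error was the size of the log2 fold change over the square root of F. CPM used the TMM-scaled totals. Subunit shares and ratios were compared by exact two-sided permutation tests of their log2 values. The nearest patterns used log2 (CPM + 0.5). Counts carry no molecular identifiers, so tests rest on the spread between lesions. The steps were tested on simulated data.

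The 10 genes and all lists were chosen with earlier results of these data known. Named from each pathway list were up to 5 genes with the smallest p, every gene of a list of 3 or fewer, and the 5 genes of at least 5 CPM nearest in pattern. Alternatives were 2 other scalings, 2 other filters, DESeq2 1.42.0, a replicate block and each lesion left out. DESeq2 without WT replicate 2 was chosen after seeing the data.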

Additional observations from a re-analysis of the deposited data

How the results depend on the processing

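The count of the 10 genes lower in KO at p under 0.05 was 7 under DESeq2's size factors, upper quartile scaling, both other filters and both DESeq2 fits. With 1 lesion left out it ran from 0 to 9, the 0 on leaving out either KO replicate 1 or 2 (3.7% and 4.22% over all genes). It was 5 on leaving out KO replicate 3 and 9 on leaving out WT replicate 1. The count of pathway genes was 19 (8.16% over all genes), and 8 to 26 with 1 lesion left out. No share over all genes was calculated for leaving out WT replicate 1, WT replicate 3 or KO replicate 3, so those counts cannot be read against one. At an adjusted p under 0.05 edgeR called 0 of the 10 and 0 pathway genes under each alternative, also without WT replicate 2, where 398 genes of the whole table passed instead of 1. DESeq2 called 4 of the 10, and 11 of the 50 pathway genes to which it gave an adjusted p (3.9% over all genes). Without WT replicate 2 DESeq2 called 4 of the 10 and 9 of 57 pathway genes (5.4% over all genes). Upper quartile scaling moved the median of all genes from 0.01 to 0.11 and that of the 10 from -1.34 to -1.24. None of the 10 genes and the named pathway genes changed direction under any alternative, and 23 of their single-gene results passed the threshold only in a DESeq2 fit. The genes nearest in pattern were not put through the alternatives. The causes were not tested.

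With the replicate block the counts were 1 of the 10 and 8 of the pathway genes, and 787 genes were lower in KO over the whole table instead of 1484. Libraries with the same number deviated together with correlations of 0.03, -0.15 and -0.20, so the numbers were not taken as pairs. Counts of the 10 genes ran from 340 to 32104 per library.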
